A study of Mus musculus with 89 samples.

Results

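Neural lineage markers were followed in mouse embryonic stem cells (ESCs) that had lost Esrrb, Nr5a2 or both orphan nuclear receptors. The markers are the 8 genes Pax6, Pax3, Sox1, Olig3, Neurog2, Hes5, Nes and Tubb3, matched by their symbol among 54146 genes in the table of counts. They were chosen with earlier results of these data known. RNA-seq was used from 20 libraries, 8 from ESCs grown in FCS/LIF (serum with the cytokine LIF, 2 libraries per state) and 12 grown in 2i/LIF (LIF with a pair of kinase inhibitors, 3 libraries per state), over 4 states. All cells carried a knockout of endogenous Esrrb and a transgene that makes Esrrb in the presence of doxycycline (EKOiE cells). The state +E+N is EKOiE with Dox at 1 µg/ml, and −E is EKOiE 2 days after Dox withdrawal. In EKOiE NrKO cells the exon encoding the Nr5a2 DNA-binding domain was also disrupted on both alleles; −N is this line with Dox and −E−N is this line 2 days after Dox withdrawal. The labels do not name the NrKO clone that was sequenced. The study's supplement describes RNA-seq of clone 4, where reads at the deleted part of Nr5a2 were all gapped. In these libraries, effects of Nr5a2 loss and other differences between NrKO and EKOiE cells cannot be told apart, nor can those of medium and culture batch. The labels do not state whether libraries of a group came from separate cultures; the study's legends describe them as independent experiments.

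The markers stand for successive steps of neural development. Sox1, a SoxB1 transcription factor, is among the earliest markers of neuroectoderm; Pax6, Pax3 and Olig3 are transcription factors that pattern the neural tube, with Pax6 ventral and in the eye and forebrain, and Pax3 and Olig3 dorsal. Neurog2, a proneural basic helix-loop-helix factor, drives neuronal commitment, and Hes5, a target of Notch signalling, holds progenitors back from it. Nes encodes nestin, an intermediate filament of neural progenitors that other dividing cells also make, and Tubb3 encodes the beta-tubulin class typical of neurons. Mouse ESCs are pluripotent cells in which many such genes are kept low, though Tubb3 was not low in these cells, as its levels below show. In bulk libraries, fewer cells that transcribe a gene and less RNA per cell cannot be told apart.

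The start-site sequences of 3 members whose response to the double loss differed between media are given first, because Esrrb and Nr5a2 bind DNA through related 9-base motifs. In RefSeq windows around the gene start (250 bases before and 50 after, build GRCm38.p6), 7 of the 8 members were matched, with 8 windows, as Pax6 has more than 1; Pax3 was not matched. The motifs TCAAGGTCA and TCAAGGCCA, searched on both strands, were in none of these windows, and in 0.423% and 0.591% of all 32851 windows. Their 7-base cores AAGGTCA and AAGGCCA were also in none of the members' windows, against 4.72% and 6.2% of all windows. The shared first 6 bases, TCAAGG, which both 9-base motifs contain, were found in the window of Olig3 alone among the members, and in 14.4% of all windows. In Olig3 they lay on the opposite strand, from 55 to 50 bases before the RefSeq start. The upstream bases of Olig3 (chr10:19356289-19356532), of the more upstream Pax6 window (chr2:105668646-105668895) and of Nes (chr3:87970843-87971077), all on the plus strand, are shown 5′ to 3′. The match to TCAAGG, read on the opposite strand, is in capitals. Each sequence ends before both the RefSeq start and the gene start given below, so the Olig3 bases stop short of its RefSeq start.
Olig3: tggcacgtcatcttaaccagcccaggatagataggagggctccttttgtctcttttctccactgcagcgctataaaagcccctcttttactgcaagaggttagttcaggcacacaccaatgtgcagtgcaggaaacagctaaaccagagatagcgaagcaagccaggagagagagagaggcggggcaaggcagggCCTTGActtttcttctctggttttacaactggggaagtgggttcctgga
Pax6: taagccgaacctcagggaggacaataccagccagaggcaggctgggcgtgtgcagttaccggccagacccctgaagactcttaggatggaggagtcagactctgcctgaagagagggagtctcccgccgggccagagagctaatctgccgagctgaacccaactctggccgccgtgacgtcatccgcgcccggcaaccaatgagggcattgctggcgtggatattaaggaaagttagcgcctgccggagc
Nes: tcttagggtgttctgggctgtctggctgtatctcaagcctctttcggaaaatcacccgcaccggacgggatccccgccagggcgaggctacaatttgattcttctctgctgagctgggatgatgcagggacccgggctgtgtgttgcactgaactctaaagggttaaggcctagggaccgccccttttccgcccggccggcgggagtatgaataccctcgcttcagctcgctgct
A match is a description of letters and not a site of binding, and binding data were not analysed here.

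All members were annotated in mm10. Pax6 (ENSMUSG00000027168) lies on chromosome 2 from 105668900 to 105697364, Sox1 on chromosome 8 from 12395295 to 12400126, and Olig3 on chromosome 10 from 19356533 to 19358604; Sox1 and Olig3 each have 1 exon. Nes lies on chromosome 3 from 87971078 to 87980451, and Tubb3 on chromosome 8 from 123411424 to 123422015. Pax3 lies on chromosome 1 from 78101267 to 78197134, Neurog2 on chromosome 3 from 127633135 to 127635631 and Hes5 on chromosome 4 from 154960923 to 154962371. Sox1 lies inside the noncoding gene Sox1ot on the same strand, which held between 1 and 10 counts in a library. Tubb3 lies inside Gm20388, a gene model on the same strand with between 74 and 904 counts in a library, so the division of reads between these was estimated and is uncertain.

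Totals per library were 36514172 to 45443379 counts for FCS/LIF, and 26653035 to 32526534 counts for 2i/LIF. Esrrb transcripts were at 312 ± 57.7 CPM (counts per 1000000 of the TMM-scaled library total; mean ± SD, n = 2) in FCS/LIF +E+N and at 30.1 ± 1.72 CPM in −E−N, and in 2i/LIF at 576 ± 52.9 CPM (n = 3), 418 ± 33.2 CPM in −E and 145 ± 36.2 CPM in −E−N. In 2i/LIF −E the log2 fold change of Esrrb against +E+N was −0.46 ± 0.16 (SE) and did not pass the test (adjusted p = 0.116). The gene count does not separate the transgene from transcripts of the knocked-out locus. Nr5a2 was at 26.4 ± 1.14 CPM in FCS/LIF −N and 68.9 ± 8.27 CPM in 2i/LIF −N, with no call against +E+N in either medium. A count over the whole gene does not check the disrupted exon, where the study's qPCR detected no wild-type transcript in its knockout clones. In FCS/LIF Nr5a2 fell from 38.0 ± 2.65 CPM in +E+N to 19.5 ± 0.305 CPM in −E. EdgeR called it lower there (log2 −0.98 ± 0.09, adjusted p = 0.000133), but not in 2i/LIF −E (−0.59 ± 0.21, adjusted p = 0.129). As a check of the cell type, the 10 pluripotent cell markers (Pou5f1, Nanog, Zfp42 and others) were all detected, with a summed level between 8348 and 8484 TPM (transcripts per 1000000) in FCS/LIF +E+N and between 4958 and 5398 TPM in −E−N. In 2i/LIF that sum ran from 7628 to 8062 TPM in +E+N and from 2894 to 3901 TPM in −E−N. Its part in the values that follow was not tested.

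On a scale per transcript length, Tubb3 and Nes had the highest medians over all libraries, Olig3 had the highest mean in 2i/LIF −E−N (12.3 ± 7.26 TPM, SD, n = 3, against 8.13 ± 1.74 TPM for Nes), and Pax3, Neurog2 and Hes5 were near the limit of detection. Tubb3 ranged from 2.16 to 85.7 TPM over the 20 libraries with a median of 21.1 TPM, and Nes from 6.28 to 35.5 TPM with a median of 8.44 TPM. Pax6 ranged from 0.52 to 5.58 TPM, Sox1 from 0.20 to 2.43 TPM and Olig3 from 0.31 to 17.9 TPM. The highest library was at 0.52 TPM for Hes5, 0.25 TPM for Neurog2 and 0.09 TPM for Pax3. Neurog2 had no count in 11 of the 20 libraries, Pax3 in 6 and Hes5 in 3.

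**Figure D1:**
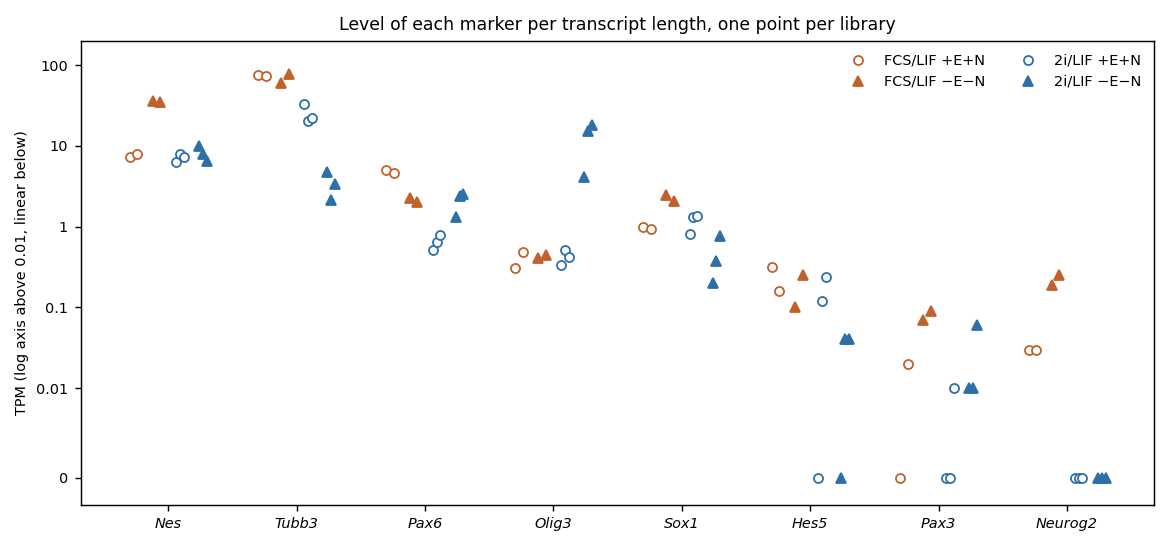
Level of each neural lineage marker in TPM (y axis, log above 0.01 and linear below) in each +E+N library (open circles) and −E−N library (filled triangles) of FCS/LIF (orange) and 2i/LIF (blue). Nes and Tubb3 lie highest in FCS/LIF and in 2i/LIF +E+N, Olig3 has the highest mean in 2i/LIF −E−N, and Neurog2 is at 0 TPM in all 2i/LIF libraries shown.

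Differences were tested with edgeR's quasi-likelihood test across all genes with at least 20 counts in every library of at least 1 state of the fit, with Benjamini-Hochberg adjustment over all of them. Calls required an adjusted p below 0.01 together with a change of more than 1.5-fold. Members at an unadjusted p under 0.05 are also counted below. How many of all genes had such a p was not counted. Those counts therefore have no background, and the shares of genes given beside them are of calls. By this filter 5 of the 8 members were tested in both media (Pax6, Sox1, Olig3, Nes and Tubb3), and Pax3, Neurog2 and Hes5 were tested in neither. Pax6 and Olig3 were among genes that the study itself plotted as differentiation markers in 2i/LIF, so their direction there is not independent evidence.

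Loss of both receptors changed 3 of the 5 tested members in each medium, but not the same set. In FCS/LIF, Nes and Sox1 rose and Pax6 fell in −E−N against +E+N, where 12.4% of the 15636 genes tested were called higher and 6.4% lower. In 2i/LIF, Olig3 and Pax6 rose and Tubb3 fell, where 9.06% of 14355 genes were called higher and 9.56% lower. Over the 5 tested members the median log2 fold change stood at −0.06 for FCS/LIF, beside 0 over all genes tested, and at 0.18 for 2i/LIF, beside 0.01. The count of 3 in −E−N stood in both media when each library was left out in turn.

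**Figure D2:**
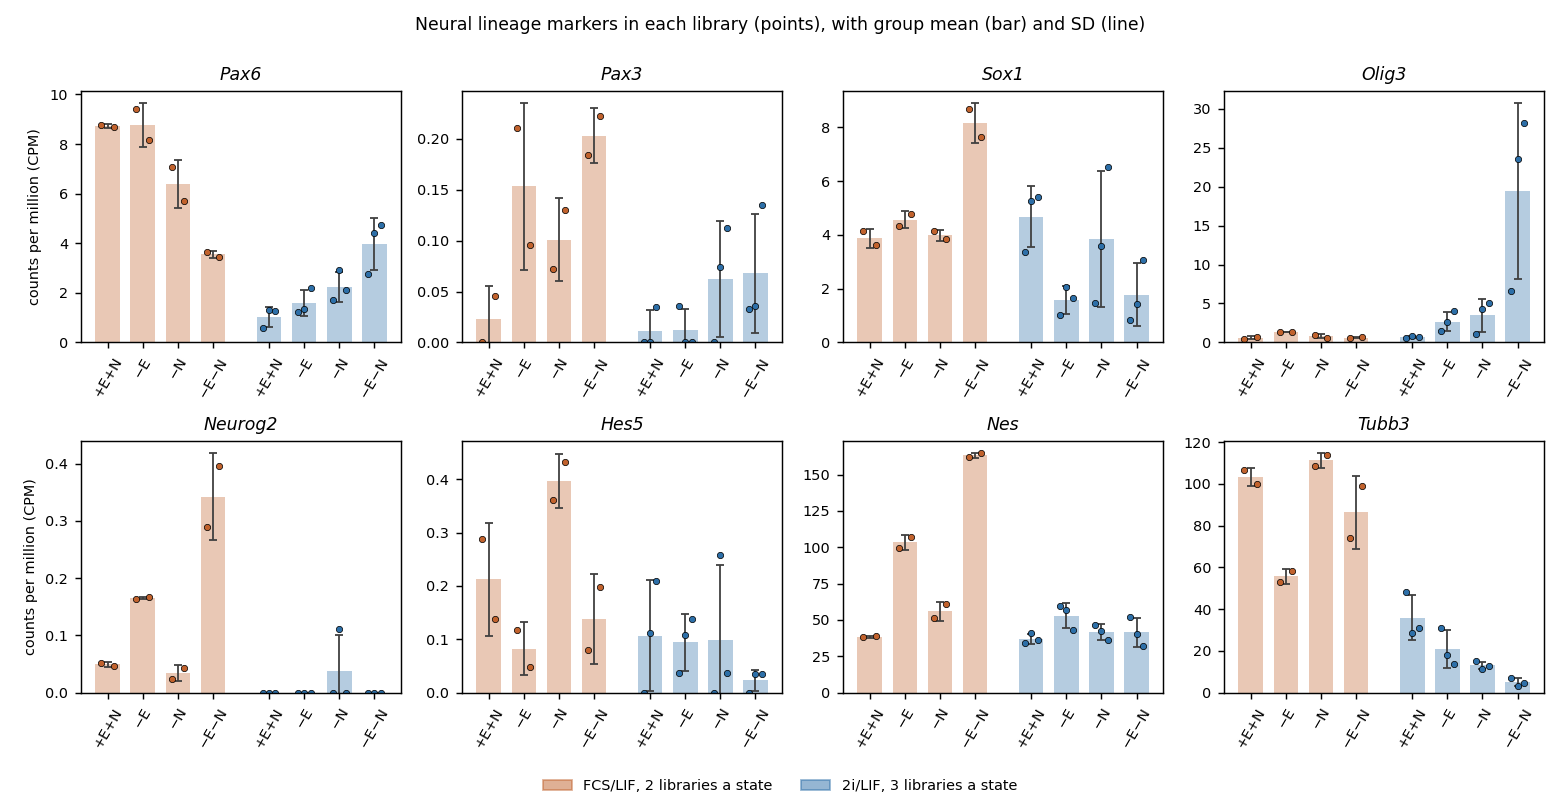
CPM (y axis, linear from 0) of each neural lineage marker in every library (points), with the mean (bar) and SD (line) of each state, in FCS/LIF (orange, n = 2) and 2i/LIF (blue, n = 3). On average Pax6 is lowest in −E−N among FCS/LIF states and highest in −E−N among 2i/LIF states, Olig3 reaches 28.1 CPM in a 2i/LIF −E−N library, and Nes reaches 165 CPM in FCS/LIF −E−N.

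Pax6, the paired-box factor of forebrain, eye and ventral neural tube progenitors, changed in opposite directions in FCS/LIF and 2i/LIF. In FCS/LIF its level was 8.79 and 8.67 CPM in the +E+N libraries and 3.66 and 3.46 CPM in −E−N. Both −E−N libraries were below both +E+N libraries, with a log2 fold change of −1.31 ± 0.15 (SE; adjusted p = 0.000181), or 2.48-fold lower. In 2i/LIF the level was 0.578, 1.30 and 1.25 CPM in +E+N and 2.76, 4.42 and 4.74 CPM in −E−N. All 3 −E−N libraries were above all 3 +E+N libraries, with a log2 fold change of 1.94 ± 0.36 (adjusted p = 0.000909), or 3.85-fold higher. The responses differed between media by −3.23 ± 0.44 on the log2 scale (FCS/LIF minus 2i/LIF, adjusted p = 6.40e-05). In the +E+N state Pax6 was 8.40-fold lower in 2i/LIF than in FCS/LIF (log2 −3.07 ± 0.31, adjusted p = 3.05e-07), and the −E−N libraries of the media overlapped, at 3.56 ± 0.136 CPM (SD, n = 2) in FCS/LIF and 3.97 ± 1.06 CPM (n = 3) in 2i/LIF.

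In neither medium was Pax6 called in a single loss. Relative to FCS/LIF +E+N, the log2 difference was −0.01 ± 0.14 for −E (±2 SE interval −0.29 to 0.27) and −0.47 ± 0.14 for −N (adjusted p = 0.143). In 2i/LIF it was 0.61 ± 0.37 for −E (adjusted p = 0.389) and 1.10 ± 0.36 in −N (adjusted p = 0.0757), again not called. The order of mean levels in 2i/LIF was −E−N, −N, −E and +E+N, and the libraries of neighbours in this order overlapped, as between −N (1.71 to 2.92 CPM) and −E−N (2.76 to 4.74 CPM).

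Sox1, the early neuroectoderm factor, rose in FCS/LIF −E−N and was not called in either single loss there. The +E+N libraries were at 4.13 and 3.62 CPM, those of −E at 4.34 and 4.79 CPM, those of −N at 4.14 and 3.85 CPM and those of −E−N at 8.70 and 7.64 CPM. The −E−N libraries lay above all other FCS/LIF libraries, and the log2 fold change against +E+N was 1.06 ± 0.15 (adjusted p = 0.000498), or 2.08-fold. In 2i/LIF it was at 3.37, 5.28 and 5.40 CPM in +E+N and at 0.822, 1.45 and 3.08 CPM in −E−N. Every −E−N library was below every +E+N library, but the log2 fold change of −1.37 ± 0.52 did not pass the test (adjusted p = 0.0529). With replicate numbers in the fit as a block Sox1 was called lower here, with values in the closing section. Same-numbered libraries of these states did not all deviate together (correlations of their deviations −0.0141 to 0.378). In 2i/LIF −N its libraries were far apart, at 1.45, 3.58 and 6.52 CPM. The difference of the −E−N response between media was 2.47 ± 0.67 and missed the threshold (adjusted p = 0.0132), and DESeq2 called it (adjusted p = 0.00235). The FCS/LIF call was lost when all 20 libraries entered 1 fit (adjusted p = 0.109).

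Olig3, a basic helix-loop-helix factor of dorsal neural tube progenitors, showed the largest difference of any member, in 2i/LIF. Its level there was 0.546, 0.818 and 0.662 CPM in +E+N, 1.47, 2.59 and 3.98 CPM in −E, and 1.13, 4.25 and 5.02 CPM in −N. In −E−N it was 6.64, 23.6 and 28.1 CPM. All −E−N libraries were above all others, with replicate 1 well below the others, and the log2 fold change against +E+N was 4.86 ± 0.66 (adjusted p = 9.79e-05), or 29.1-fold. In FCS/LIF Olig3 was at 0.497 and 0.757 CPM in +E+N and at 0.579 and 0.643 CPM in −E−N. These libraries overlapped, and the log2 fold change was −0.06 ± 0.34 (±2 SE interval −0.74 to 0.61). The responses differed by −4.89 ± 0.97 between media (FCS/LIF minus 2i/LIF, adjusted p = 0.00150), a call that was lost without FCS/LIF +E+N replicate 2 (adjusted p = 0.0171). In FCS/LIF −E it was at 1.38 and 1.31 CPM, above both +E+N libraries, with a log2 fold change of 1.07 ± 0.31 that was not called (adjusted p = 0.0399).

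Nes, the progenitor intermediate filament, rose with the loss of Esrrb in FCS/LIF. The +E+N libraries were at 38.0 and 39.0 CPM, those of −E at 99.6 and 107 CPM, those of −N at 51.2 and 60.7 CPM and those of −E−N at 162 and 165 CPM. No library of a state overlapped another state. Relative to +E+N the log2 difference was 1.41 ± 0.08 for −E (adjusted p = 2.49e-05) and 2.07 ± 0.08 for −E−N (adjusted p = 1.04e-06), or 2.65-fold and 4.18-fold. In −N it was 0.52 ± 0.08, below the limit of fold change and not called (adjusted p = 0.0235). In 2i/LIF Nes was at 33.9, 40.6 and 36.1 CPM in +E+N and at 52.0, 40.2 and 31.9 CPM in −E−N. These libraries overlapped, and the log2 fold change of 0.18 ± 0.17 was not called (±2 SE interval −0.16 to 0.51). The −E−N responses differed between media by 1.92 ± 0.23 (adjusted p = 2.45e-05), while the +E+N levels of the media differed by −0.06 ± 0.17 and were not called.

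Tubb3, the neuronal beta-tubulin, fell in 2i/LIF −E−N. Its level in 2i/LIF was 48.2, 28.6 and 30.8 CPM in +E+N, 31.0, 18.1 and 13.5 CPM in −E, 14.9, 11.2 and 12.7 CPM in −N and 6.77, 3.00 and 4.77 CPM in −E−N. The −E−N libraries were below all others, with a log2 fold change against +E+N of −2.87 ± 0.34 (adjusted p = 3.56e-05), or 7.30-fold lower. The FCS/LIF libraries were at 107 and 100 CPM for +E+N, 53.2 and 58.2 CPM for −E, 109 and 114 CPM for −N and 73.8 and 98.8 CPM for −E−N. The −E libraries were the lowest, with a log2 fold change of −0.91 ± 0.12 (adjusted p = 0.00132), or 1.88-fold lower, whereas −E−N was not called (−0.28 ± 0.12, adjusted p = 0.0869). The −E call was lost without FCS/LIF −E replicate 1 (adjusted p = 0.0173), without FCS/LIF −E replicate 2 (adjusted p = 0.0125) and when all 20 libraries entered 1 fit (adjusted p = 0.0793). The −E−N responses differed between media by 2.62 ± 0.42 (adjusted p = 0.000301).

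The overlapping gene model Gm20388 bears on Tubb3 in 2i/LIF, where it had 850, 289 and 566 counts in +E+N and 388, 74 and 540 counts in −E−N. The counts of Tubb3 itself were 1500, 769 and 883 in +E+N and 206, 85 and 141 in −E−N. With the counts of both summed, in an alternative chosen after the values were seen, the log2 fold change of Tubb3 in 2i/LIF −E−N against +E+N was −1.76 and was still called (adjusted p = 0.00721). The difference between media became 1.51 and was no longer called (adjusted p = 0.0656). In 2i/LIF −N the log2 fold change became −0.68 (adjusted p = 0.369), and in FCS/LIF −E it was −0.91 and still called (adjusted p = 0.000794).

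**Figure D3:**
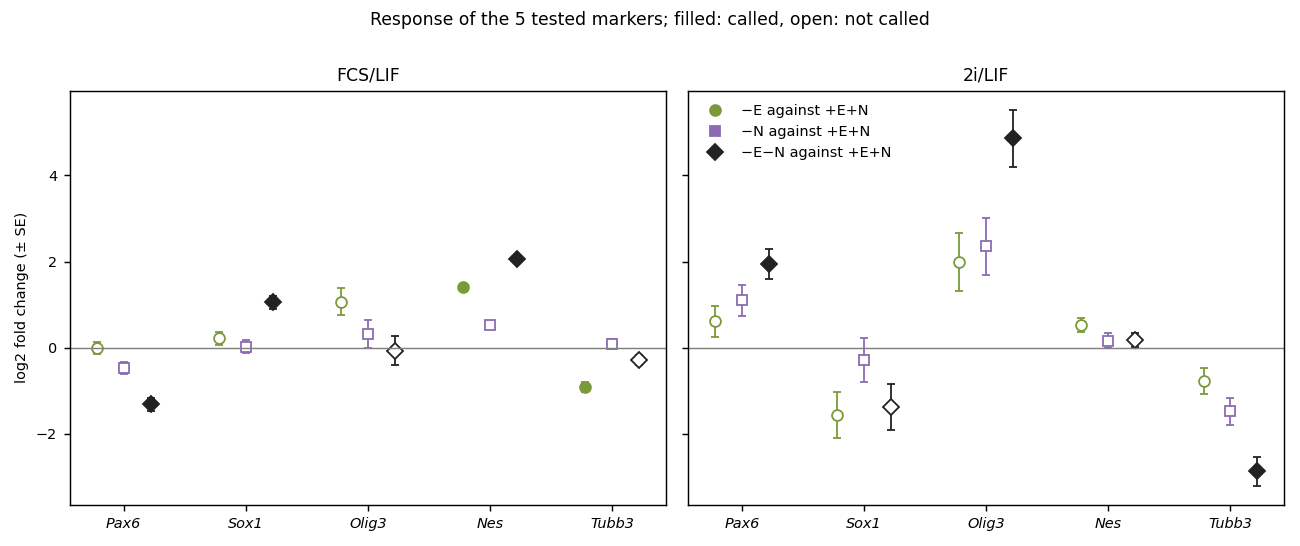
Log2 fold change against +E+N (y axis, ± SE) of the 5 tested markers in −E (green circles), −N (violet squares) and −E−N (black diamonds), in FCS/LIF (left) and 2i/LIF (right), with called differences filled. Pax6 lies at −1.31 in FCS/LIF −E−N and at 1.94 in 2i/LIF −E−N, and Olig3 reaches 4.86 in 2i/LIF.

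Neurog2, Pax3 and Hes5 had too few counts for the test, and their counts are given with 95% intervals that cover counting error only. Neurog2, the proneural factor, had 2 and 2 counts in FCS/LIF +E+N and 7 and 7 counts in −E, with 1 and 2 counts for −N and 11 and 16 for −E−N. Its pooled rate was 7.04 times that of +E+N in −E−N (exact interval 2.45 to 27.7) and 10.1 times that of −N (3.10 to 51.9). A fit with no filter on low counts called both differences (log2 2.71 ± 0.88, adjusted p = 0.00991, and 3.21 ± 0.92, adjusted p = 0.00373). In these comparisons that fit called 3757 and 2556 of 29656 genes. In 2i/LIF Neurog2 was detected in a single library, of −N, with 3 counts, and the 3 libraries of −E−N had 0 counts, a floor of 0.0340 CPM at 3 counts over the group and an exact 95% upper limit of 0.0418 CPM.

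Pax3, the dorsal neural tube and neural crest factor that also marks muscle progenitors, had 0 and 2 counts in FCS/LIF +E+N and 9 and 4 counts in −E, with 3 and 6 counts for −N and 7 and 9 for −E−N. Its rate in −E−N was 8.34 times that in +E+N (1.96 to 74.8), and the unfiltered fit did not call it (adjusted p = 0.0342). In 2i/LIF no library of Pax3 had more than 4 counts. Hes5, the Notch target, had 11 and 6 counts in FCS/LIF +E+N and 5 and 2 counts in −E, with 15 and 20 counts for −N and 3 and 8 for −E−N. Its rate in −E−N was 0.352 times that in −N (0.161 to 0.708) and 0.675 times that in +E+N (0.286 to 1.53), with no call in the unfiltered fit. In 2i/LIF it had 9 counts in all in +E+N and 2 in −E−N, a ratio of 0.218 (0.0230 to 1.05).

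Loss of Esrrb alone called Nes higher and Tubb3 lower in FCS/LIF, 2 of the 5 tested members, where 3.23% of genes were called higher and 2.53% lower. Nr5a2 transcripts were also called lower in FCS/LIF −E, as given above, so at the RNA level Esrrb did not fall alone there. In 2i/LIF −E none of the 5 was called by edgeR or by DESeq2, with 4 at an unadjusted p under 0.05, and 0.439% of genes were called higher and 1.11% lower. Libraries with the same replicate number deviated together in 2i/LIF in this comparison (correlations of their deviations from the state means 0.192 to 0.498). When replicate numbers entered the fit as a block, 2i/LIF −E gave 3 calls among the 5, namely Olig3 (log2 1.95 ± 0.30, adjusted p = 0.000886), Sox1 (−1.59 ± 0.29, adjusted p = 0.00269) and Tubb3 (−0.80 ± 0.15, adjusted p = 0.00317). In that fit 1.69% of genes were called higher and 2.47% lower.

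Loss of Nr5a2 alone called none of the 5 in FCS/LIF, by edgeR or by DESeq2, with 2 at an unadjusted p under 0.05, where 0.0767% of genes were called higher and 0.0959% lower. In 2i/LIF −N edgeR with the filter also called none, with 3 at an unadjusted p under 0.05. Of all genes it called 1.61% higher and 2.04% lower there. DESeq2 called 2 of the 5 there, where it called 860 of all 14355 genes. The nearest to the threshold was Tubb3, with a log2 fold change of −1.47 ± 0.32 (adjusted p = 0.0109), followed by Olig3 with 2.35 ± 0.66 (adjusted p = 0.0393). With the replicate block 3 of the 5 were called, Tubb3 (−1.44 ± 0.16, adjusted p = 3.34e-05), Olig3 (2.24 ± 0.30, adjusted p = 0.000157) and Pax6 (1.13 ± 0.25, adjusted p = 0.00514), where 3.5% of genes were called higher and 4.27% lower. Same-numbered libraries correlated between 0.194 and 0.593 in this comparison.

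Within the NrKO cells, withdrawal of Dox can be compared without a difference in the Nr5a2 genotype. In FCS/LIF, −E−N against −N called Nes (log2 1.55 ± 0.08, adjusted p = 7.59e-06) and Sox1 (1.03 ± 0.14, adjusted p = 0.00108) higher and Pax6 (−0.84 ± 0.15, adjusted p = 0.00359) lower, where 6.57% of genes were called higher and 3.49% lower. The call of Pax6 was lost without −N replicate 1 (adjusted p = 0.0207), −E−N replicate 1 (adjusted p = 0.0180) or −E−N replicate 2 (adjusted p = 0.0323), and that of Sox1 without −E−N replicate 1 (adjusted p = 0.0127). Both calls were also lost when all 20 libraries entered 1 fit, and that of Pax6 in the fits of limma on log2 TPM. Without −E−N replicate 2 Tubb3 was called lower (−0.62, adjusted p = 0.00489). In 2i/LIF the same comparison called Olig3 higher (2.51 ± 0.56, adjusted p = 0.00825), 1 of 5, where 3.39% of genes were called higher and 3.36% lower. That call was kept without −E replicate 1, −E replicate 3 or −E−N replicate 1 and was lost without any 1 of the other 9 libraries (adjusted p 0.0103 to 0.0333). It was also lost in the fits of limma on log2 TPM. With the replicate block Olig3 was called higher (adjusted p = 3.57e-06) and Tubb3 lower (−1.43 ± 0.18, adjusted p = 5.69e-05), where 6.52% of genes were called higher and 4.78% lower.

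Compared with the loss of Esrrb alone, −E−N in FCS/LIF called 4 of the 5 members, with Nes (0.66 ± 0.08, adjusted p = 0.00125), Sox1 (0.84 ± 0.14, adjusted p = 0.00516) and Tubb3 (0.63 ± 0.12, adjusted p = 0.00819) higher and Pax6 (−1.30 ± 0.15, adjusted p = 0.000990) lower. Of all genes 3.52% were called higher and 1.53% lower. All 4 calls were lost without −E replicate 1, without −E−N replicate 2, and when all 20 libraries entered 1 fit. Sox1 was also lost without −E replicate 2 (adjusted p = 0.0334) or −E−N replicate 1 (adjusted p = 0.0380), and Tubb3 without −E replicate 2 (adjusted p = 0.0371). In 2i/LIF, −E−N against −E called Olig3 higher (2.87 ± 0.57, adjusted p = 0.00234) and Tubb3 lower (−2.09 ± 0.34, adjusted p = 0.000589), where 6.9% of genes were called higher and 6.21% lower. The Olig3 call was lost without −E replicate 1 (adjusted p = 0.0115) and without −E replicate 2 (adjusted p = 0.0128), and the Tubb3 call when the counts of Gm20388 were added (adjusted p = 0.0674). With the replicate block Pax6 was called as well (1.32 ± 0.23, adjusted p = 0.000370), giving 3 of 5, where 9.17% of genes were called higher and 8.52% lower.

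The interaction asks whether the double loss differed from the sum of the single losses on the log2 scale, and here the adjusted p below 0.01 was the sole criterion. None of the 5 members passed in either medium, by edgeR with the filter or by DESeq2. Without the filter edgeR called Tubb3 in FCS/LIF, where it called 242 of 29656 genes. In FCS/LIF 4 of the 5 had an unadjusted p under 0.05, led by Pax6 at −0.83 ± 0.21 (adjusted p = 0.281) and Sox1 at 0.81 ± 0.21 (adjusted p = 0.304). The share of all genes under that unadjusted p was not counted. By the adjusted p, 0% of genes were called higher and 0.032% lower. In 2i/LIF 1 of the 5 had an unadjusted p under 0.05, Nes at −0.52 ± 0.24 (adjusted p = 0.363), where 0.0975% of genes were called higher and 0.209% lower. For Olig3 in 2i/LIF the interaction was 0.52 ± 0.88, with a ±2 SE interval from −1.24 to 2.28.

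Between the media, +E+N cells called 2 of the 5 members, Pax6 and Tubb3, both lower in 2i/LIF, where 17.2% of 16147 genes were called higher in 2i/LIF and 17.5% lower. Tubb3 was 2.88-fold lower (log2 −1.53 ± 0.28, adjusted p = 0.000148), which was not called once Gm20388 was added (−1.12, adjusted p = 0.0201). Sox1 (0.27 ± 0.47), Olig3 (0.09 ± 0.71) and Nes were not called. For the FCS/LIF response minus the 2i/LIF response the adjusted p below 0.01 was again the sole criterion. For the −E−N response 4 of the 5 members passed, Nes and Tubb3 with the more positive response in FCS/LIF and Pax6 and Olig3 with the more positive response in 2i/LIF, where 7.3% of genes were called higher and 5.93% lower. For the −E response none passed by edgeR with the filter, with 2 at an unadjusted p under 0.05. Among all genes 0.588% were called higher and 0.471% lower. DESeq2 called 1 of the 5, where it called 532 of all 16147 genes. For the −N response none passed by edgeR with the filter or by DESeq2, with 3 at an unadjusted p under 0.05. Among all genes 0.409% were called higher and 0.334% lower.

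Other genes of the same lineages were described from fixed lists by the same calls in −E−N against +E+N. For these lists and those of other cell types below, the background is all genes tested. In FCS/LIF 12.4% of them were called higher and 6.4% lower, and in 2i/LIF 9.06% higher and 9.56% lower. Whether a list differed from these shares was not tested. Of 23 genes of the Notch pathway and the Hes and Hey family, 22 were tested in FCS/LIF, with 7 called higher and 2 lower, and 18 in 2i/LIF, with 5 higher and 2 lower. In 2i/LIF the Notch ligand gene Dll1 rose from 0.192 to 4.03 CPM on average (log2 4.42 ± 0.54, adjusted p = 4.09e-05) and Lfng, which modifies Notch receptors, rose by 2.98 ± 0.40. Hes1, a Notch effector related to Hes5, fell by 2.09 on the log2 scale (SE 0.13) and Notch4 fell by 2.69 (SE 0.23). In FCS/LIF the ligand gene Dll4 (1.83 ± 0.30) and Id1 (1.12 ± 0.10), an inhibitor of basic helix-loop-helix factors, rose, and Notch4 (−2.03 ± 0.20) and Rbpj (−0.67 ± 0.05), the DNA-binding partner of Notch, fell.

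Among 40 other neural progenitor transcription factors, 25 were tested in FCS/LIF, with 9 higher and 5 lower (median log2 fold change 0.58), and 16 in 2i/LIF, with 4 higher and 4 lower (median 0.40). Irx3 rose in both media, by 2.30 ± 0.28 in FCS/LIF and by 2.66 ± 0.70 in 2i/LIF. Meis2 (2.40 ± 0.21) rose in FCS/LIF, where Neurog3 (−3.01 ± 0.43), a factor best known from endocrine progenitors, and Pax8 (−2.42 ± 0.32) fell. In 2i/LIF Sox11 rose by 2.91 ± 0.35 and Pou3f3 (−1.83 ± 0.43) fell. Otx2, a factor of anterior neuroectoderm and primed pluripotency, also fell there, from 1.56 CPM to 0.0348 CPM, which is near the limit of detection, so no fold is given. Up to 5 of the 40 genes had no count in any library of a 2i/LIF state. Sox2, which is also in the list of pluripotent cell markers, fell in FCS/LIF (−1.20 ± 0.10) and 2i/LIF (−0.88 ± 0.14).

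The 26 neuronal genes gave 2 higher and 8 lower of 23 tested in FCS/LIF (median −0.55) and 3 higher and 5 lower of 18 in 2i/LIF (median −0.53). In FCS/LIF the neurofilament genes Nefm (2.59 ± 0.18) and Nefl (1.60 ± 0.11) rose, and Stmn2 (−0.95 ± 0.08) and Tubb2b (−0.86 ± 0.09) fell. In 2i/LIF the growth cone gene Gap43 (3.69 ± 0.36) and the microtubule-associated Map2 (1.40 ± 0.36) rose, and Stmn3 (−3.44 ± 0.42) and Mapt (−2.11 ± 0.20) fell. The summed level of the list was 451 to 468 TPM in FCS/LIF +E+N and 321 to 329 TPM in −E−N, and 434 to 477 TPM and 313 to 357 TPM in 2i/LIF. Of the 7 other beta-tubulin genes, 6 were tested in each medium, with 2 higher and 1 (Tubb2b) lower in FCS/LIF and 1 higher and 1 lower in 2i/LIF. Tubb4a rose in both (1.19 ± 0.22 and 3.16 ± 0.33), Tubb6 rose in FCS/LIF (1.28 ± 0.11) and Tubb2a fell in 2i/LIF (−0.65 ± 0.15). Their summed level, between 1519 and 2022 TPM in every library, was far above that of Tubb3.

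Of 12 radial glial and neural progenitor genes of the cytoskeleton, adhesion and RNA binding, 3 of 9 tested were higher and none lower in FCS/LIF, and 4 of 7 were higher and 1 lower in 2i/LIF. Prom1, a surface protein of neural and other stem cells, rose in FCS/LIF (1.87 ± 0.12) and in 2i/LIF (2.83 ± 0.39). Cdh2, the neural cadherin, rose in FCS/LIF (1.26 ± 0.11), and the growth factor gene Ptn rose in 2i/LIF from 0.0777 to 4.07 CPM (5.60 ± 0.45) while Lix1 fell (−1.27 ± 0.33). The +E+N level of Ptn was near the limit of detection (SD 0.0683 CPM), so the size of its fold is uncertain. Neural crest markers gave 6 higher and 2 lower of 12 tested in FCS/LIF and 3 higher and 2 lower of 8 in 2i/LIF. Among them Msx1 rose in FCS/LIF (2.83 ± 0.20) and 2i/LIF (4.14 ± 0.59), Sox9 (2.17 ± 0.37) rose in FCS/LIF and Sox8 (4.39 ± 0.53) in 2i/LIF. In +E+N of these media Sox9 was at 0.169 CPM and Sox8 at 0.112 CPM, so both folds start from few counts. Foxd3, which ESCs also use, fell in FCS/LIF (−1.49 ± 0.14) and 2i/LIF (−1.05 ± 0.20), as did Tfap2a (−1.45 ± 0.13 and −1.95 ± 0.19).

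Markers of other cell types moved as well, and their part in the members' values was not tested. Of 16 paraxial mesoderm and muscle markers, to which Pax3 is also related, 6 were tested in FCS/LIF, with 1 higher and 2 lower, and 4 in 2i/LIF, with 1 higher and 1 lower; 2 of the 16 had no count in 2i/LIF −E−N. Meox1 fell in FCS/LIF (−2.40 ± 0.41) and was called higher in 2i/LIF, from 0.0124 CPM, under the limit of detection, to 3.66 ± 3.20 CPM (SD, n = 3). Foxc1 rose (2.77 ± 0.56) and Tcf15 fell (−1.50 ± 0.10) in FCS/LIF, and Tbx18 fell in 2i/LIF (−3.46 ± 0.41). In FCS/LIF the +E+N level of Foxc1, 0.110 CPM, and the −E−N level of Meox1, 0.141 CPM, rest on few counts. The summed level of this list was 57.8 to 67.8 TPM in FCS/LIF +E+N and 26.6 to 28.2 TPM in −E−N. Of 8 primitive endoderm markers, 2 were higher (Dab2, 1.57 ± 0.10, and Col4a1, 1.31 ± 0.18) and 1 lower (Lama1, −0.98 ± 0.09) in FCS/LIF, with a summed level of 42.2 to 58.2 TPM in +E+N and 93.3 to 112 TPM in −E−N. In 2i/LIF Pdgfra rose (1.20 ± 0.27), Lama1 (−4.85 ± 0.28) and Gata4 (−1.52 ± 0.39) fell, and the sum was 7.49 to 9.84 TPM and 3.54 to 6.30 TPM. Of the 10 pluripotent cell markers 7 fell in FCS/LIF, led by Zfp42 (−3.44 ± 0.09) and Nanog (−1.30 ± 0.11), and 5 in 2i/LIF, led by Tdgf1 (−1.98 ± 0.28) and Dppa5a (−1.39 ± 0.12). The single marker that rose in each medium was Fut4 (1.63 ± 0.21 and 4.82 ± 0.86), a fucosyltransferase that neural progenitors also make. In 2i/LIF +E+N it was at 0.131 ± 0.123 CPM (SD, n = 3), so the size of its fold there is uncertain.

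**Figure D4:**
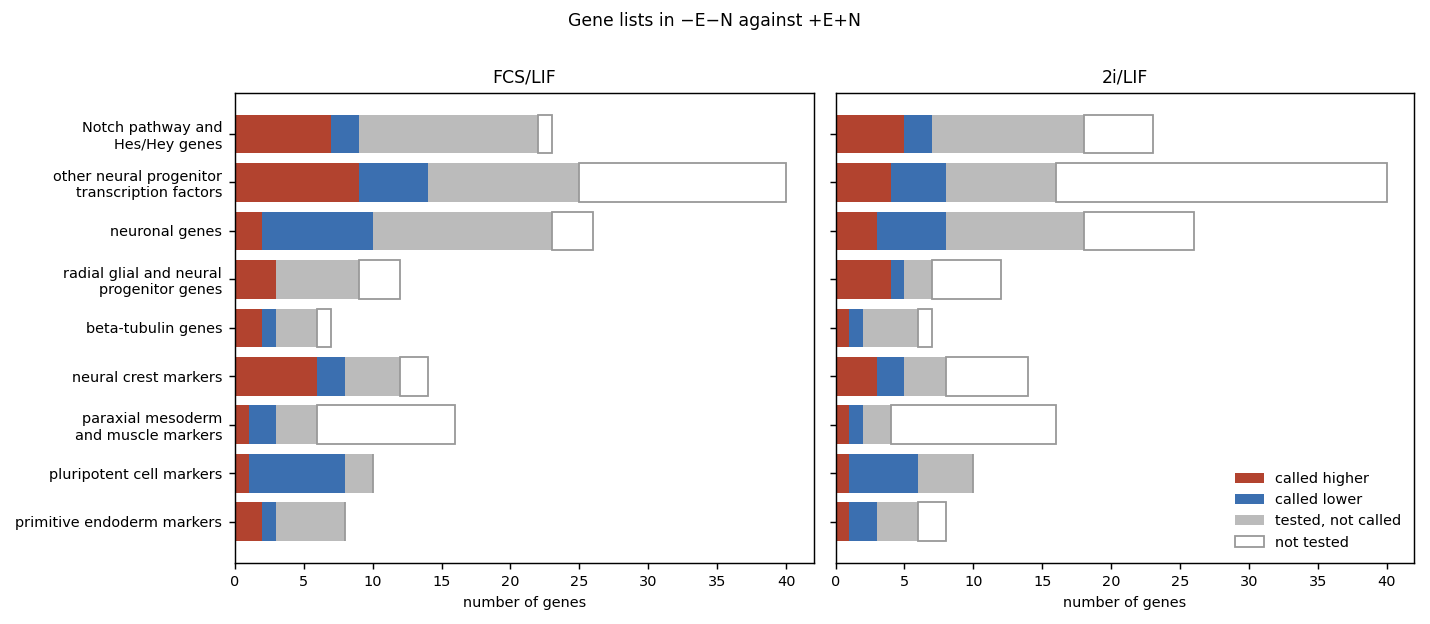
Number of genes (x axis) of each list called higher (red), called lower (blue), tested and not called (grey) and not tested (white) in −E−N against +E+N in FCS/LIF (left) and 2i/LIF (right). Of the pluripotent cell markers 7 of 10 were lower in FCS/LIF and 5 of 10 in 2i/LIF. The neural lists held genes in both directions, except the radial glial and neural progenitor genes in FCS/LIF, where none was called lower. Among all genes tested, 12.4% were called higher and 6.4% lower in FCS/LIF, and 9.06% and 9.56% in 2i/LIF.

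The genes whose levels followed each member most closely were found by Pearson's r of log2 CPM, after subtraction of the mean of the medium, over the 20 libraries and 13772 genes. These values are a description, as libraries of a group share their state. For Pax6 they were Eno1 (r = 0.885), Gm5662 (r = 0.882) and Cep44 (r = 0.879), and for Sox1 they were Spint1 (r = 0.906), Fzd4 (r = 0.896) and Zfpm1 (r = 0.890). For Olig3 they were Esrp1 (r = 0.927), Arrdc4 (r = 0.924) and B3gnt7 (r = 0.921), with r of at least 0.939 within 2i/LIF and at most 0.481 within FCS/LIF. For Nes they were St6gal2 (r = 0.915), Trim67 (r = 0.899) and Alox15 (r = 0.890), with r between 0.973 and 0.987 within FCS/LIF and between 0.232 and 0.653 within 2i/LIF. For Tubb3 they were Pfdn1 (r = 0.952), Itpka (r = 0.938) and Rap1gap (r = 0.932).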

How the data were processed

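RNA-seq libraries of mouse ESCs in 8 groups of state and medium were used, without the 69 ChIP-seq samples. Reads were paired-end and stranded; the authors mapped them to mm10 and obtained an expected count for every gene from RSEM. The deposited expected counts were not normalized between libraries and were rounded to whole numbers. The deposited TPM values were made by the authors with RSEM and are per transcript length. RSEM divides reads shared by overlapping or near-identical genes by estimation, which makes their counts less certain. Of 54238 rows, 92 without a gene ID were left out, and 54079 of 54146 gene IDs were matched to GENCODE vM21. Library totals are given in the text; at 20 counts counting error is large, and intervals and floors cover counting error only.

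Each medium had a fit of its 4 states (edgeR 4.0.16, R 4.3.3, TMM, quasi-likelihood test, Benjamini-Hochberg adjustment over all genes tested), and all 20 libraries as 8 groups for differences between media. The filter, thresholds and CPM scale are as in the text. Alternatives were DESeq2 1.42.0, its size factors, no filter, the replicate number as a block, limma 3.58.1 on the deposited TPM (log2 after adding 1 or 0.1), all libraries in 1 fit, each library left out, and, added after the values were seen, the counts of overlapping genes added. Same-numbered 2i/LIF libraries deviated together with correlations over 0.1 in all pairs of states except +E+N and −E−N (lowest −0.0141); the labels do not say what a number shares. Replicates differed by more than sampling noise (chi-square per degree of freedom 4.28 to 19.7).

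The members, the gene lists and the tests were chosen with earlier results of these data known. Genes named are all members, the targeted genes, from each list up to 2 called genes with the largest rise and 2 with the largest fall in −E−N in each medium, and the 3 genes most like each tested member (at least 1 CPM on average); Sox2 was named beside its lists after its values were seen. Lists share Sox2, Tubb2b, Zic1 and Hes7. The fits were tested on simulated data.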

Additional observations from a re-analysis of the deposited data

Results flagged for a closer look

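The response of 4 members to the loss of both receptors differed between FCS/LIF and 2i/LIF by the test of the difference itself (edgeR's quasi-likelihood test over 16147 genes, FCS/LIF minus 2i/LIF on the log2 scale). Pax6 differed by −3.23 ± 0.44 (adjusted p = 6.40e-05), falling in both FCS/LIF −E−N libraries and rising in all 3 of 2i/LIF. Olig3 differed by −4.89 ± 0.97 (adjusted p = 0.00150), and its highest 2i/LIF −E−N library was at 28.1 CPM against 6.64 CPM in the lowest. Nes differed by 1.92 ± 0.23 (adjusted p = 2.45e-05). Tubb3 differed by 2.62 ± 0.42 (adjusted p = 0.000301), which was 1.51 and not called when the counts of Gm20388 were added.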

How the results depend on the processing

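Over 1615 fold changes of single members under an alternative, 1489 kept direction and call, 51 gained a call, 48 lost one and 27 changed sign. The number of members called moved by more than 1.5 times in the cases given next, and by at most 1 member in all other fits with every library; for the medium difference of the −E−N response it was 3 to 5 (4 as reported). Brackets hold the number of all genes called in that fit, and where shown the number tested. With all 20 libraries in 1 fit of 16147 genes, FCS/LIF gave 1 in −E (445), 1 in −E−N against −N (920) and 0 in −E−N against −E (437). In the same fit 2i/LIF gave 1 in −N (792) and 2 in −E−N against −N (1350). With limma on log2(TPM + 1) or log2(TPM + 0.1) the number of members was 2 in FCS/LIF −E−N against −E (482 and 467 of 15636). With the former it was 0 in 2i/LIF −E−N against −N (688 of 14355). With the latter Tubb3 was called there in place of Olig3 (682 of 14355). DESeq2 gave 2 in 2i/LIF −N (860 of 14355), 2 in 2i/LIF −E−N against −N (1306 of 14355) and 1 for the medium difference of the −E response (532 of 16147). Without the filter the number of members was 1 for the FCS/LIF interaction (242 of 29656), 2 in 2i/LIF −N (828 of 28991) and 2 in 2i/LIF −E−N against −N (1290 of 28991). It was also 2 and 3 for the medium differences of the −E and −N responses (706 and 809 of 31736). With the replicate block it was 3 in 2i/LIF −E, 3 in 2i/LIF −N and 2 in 2i/LIF −E−N against −N. The shares of all genes called in these block fits are given in the Results. The block gave 2 for the medium difference of the −E response (728 of 16147, and 171 without the block). For that of the −N response it also gave 2 (686 of 16147, and 120 without the block). In 2i/LIF −E−N against +E+N the block also called Sox1 (−1.50, adjusted p = 0.000718). There it called 3286 of all 14355 genes, and 2672 were called without it. In FCS/LIF, where 2 same-numbered pairs correlated between 0.0771 and 0.462, the block changed no member's call. No paired analysis was possible for +E+N between media because libraries of different media are not paired. With the overlapping genes' counts added the number of members was 1 in 2i/LIF −E−N against −E (1882 of 14355) and 1 in +E+N between media (5606 of 16147). Leaving out 1 library gave 1 to 2 in FCS/LIF −E, 1 to 3 and 0 to 4 in FCS/LIF −E−N against −N and −E, 0 to 1 in 2i/LIF −N, and 0 to 2 and 1 to 3 in 2i/LIF −E−N against −N and −E.

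Signs changed only for differences that were not called. The log2 fold change of Pax6 in FCS/LIF −E was 0.10 and 0.12 with limma at a pseudocount of 1 and 0.1 and 0.0086 with all libraries in 1 fit, and −0.11 to 0.094 without 1 library. Olig3 in FCS/LIF −E−N was 0.033 and 0.11 with limma and −0.32 to 0.28 without 1 library, and −0.029 to 0.67 in −N. Nes in 2i/LIF −E−N against −N was −0.0066 without the filter, −0.0080 with all libraries and −0.19 to 0.16 without 1 library, and against +E+N −0.021 to 0.33. The medium difference of the −E response of Tubb3 was 0.037 and 0.068 with limma and −0.38 to 0.30 without 1 library. Without 1 library Sox1 ranged from −0.068 to 0.13 in FCS/LIF −N, −0.90 to 0.11 in 2i/LIF −N, −0.47 to 0.53 in 2i/LIF −E−N against −E, −0.19 to 1.09 for the 2i/LIF interaction and −0.089 to 0.94 for the medium difference of the −N response, and Olig3 from −0.18 to 0.42 in +E+N between media. The cause was not tested. Members with no state that had at least 20 counts in every library are limited by depth.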
